A study of Mus musculus with 6 samples.

Results

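Rab GTPases are small proteins that mark the membranes of the cell, and 59 genes of the family, out of 37620 gene rows in the deposited table, were taken by their symbols (Rab, a number, and at most 1 letter from a to d and 1 further digit). A Rab is loaded with GTP by an exchange factor, recruits effectors that carry, tether and fuse vesicles, and is switched off by a GTPase-activating protein. Each Rab is known for a set of compartments: the Rab3 and Rab27 groups for stored granules, Rab5 for early endosomes, Rab4 and Rab11 for recycling, Rab7 for late endosomes and lysosomes, and Rab32 and Rab38 for lysosome-related organelles, such as melanosomes and the dense granules of platelets. Granulocyte-macrophage progenitors (GMPs), the bone marrow cells that give rise to granulocytes and monocytes, already transcribe genes of the primary granules, which are formed at the later promyelocyte stage.

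RNA was sequenced from GMPs sorted from the marrow of C57BL/6 mice, in 3 libraries of Bap1 f/f mice (control) and 3 labelled Bap1 knockout, from mice of genotype MX1+ Cre Bap1 f/f. Per the labels, marrow was taken at 65 days of age, and every mouse, controls included, was given polyI:polyC at 42 days, while the series' design text places that treatment earlier in life. The interferon inducer polyI:polyC turns on the Mx1 promoter, which drives Cre in many cell types, and only the knockout-labelled mice carried Cre, so effects of Cre and of Bap1 deletion cannot be told apart. Each library held 19464353 to 25901725 reads in genes, of which 0.345 to 0.372% came from Rab genes. Whether the libraries of a group came from different animals is not given in the labels, so p-values measure the spread between these libraries.

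Bap1 itself goes against the labels. It stood at 1343, 998.5 and 1076 normalized counts in control libraries and at 2671, 3309 and 2968 in the libraries of the Cre-carrying mice (log2 difference 1.39, SE 0.14, limma adjusted p = 6.07e-05). A count over the whole gene does not check the deleted part, so each direction below follows the label alone. The knockout-labelled libraries are called KO libraries from here on. Of 12 genes of GMPs and primary granules, 5 rose and 2 fell, beside 11.8% higher and 15.0% lower of all genes tested. Elane, the neutrophil elastase gene, rose (log2 difference 0.69, limma adjusted p = 0.0263), while the gate gene Cd34 fell by 1.54 on that scale (5.04e-06). Elane was not called without control replicate 1, 2 or 3 (limma adjusted p up to 0.14). Nor was it called with every gene of at least 1 read tested. The rises of Ctsg (log2 difference 0.70, limma adjusted p = 0.00153) and Ms4a3 (0.76, 0.00214) held in all 15 alternative settings. Mpo, the myeloperoxidase gene, averaged 509919 normalized counts in control and 635305 in KO libraries and did not pass (adjusted p = 0.251, overlapping groups). In this bulk RNA, fewer cells of a type and less RNA per cell cannot be told apart.

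Of the 59 Rab genes, 57 had a read, and 50 reached a mean of 10 normalized counts and were tested. Normalized counts are the deposited values, which are reads divided by a size factor of the library. With limma on log2(value + 1), 9 Rabs rose and 7 fell at an adjusted p of 0.05, while 34 passed in neither direction. That is 32% of the tested Rabs, beside 26.8% of all 14391 genes tested (11.8% higher and 15.0% lower), so the family as a whole changed about as often as other genes. The median log2 difference was -0.02 over the Rabs and 0.01 over all genes. Rab13, Rab36 and Rab42 reached the mean of 10 only through the control libraries, since their KO means were below it, and the counts above include them as a description only. With values corrected for the GC content and length of transcripts, 11 Rabs rose and 6 fell, and 43% of all calls were lower in place of 56.1%.

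By role, the secretory Rabs (granule secretion and other exocytosis) had 2 higher and 3 lower among 11 tested (45.5%). Rab13, tested only because of its control level, is 1 of these 3. The endosomal Rabs (early, recycling and late) had 5 higher and 0 lower among 21 (23.8%). In that class limma at an unadjusted p under 0.05 gave 2 lower, and edgeR and DESeq2 on the recovered reads gave 0 each. All 3 Rabs placed with lysosome-related organelles were called, 1 higher and 2 lower. Roles were assigned with earlier results of these data known, so these counts depend on the assignment. Over all genes tested 26.8% were called, 11.8% higher and 15.0% lower. Counts by role here and below are to be read against these shares. The differences between these classes were not tested.

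**Figure D1:**
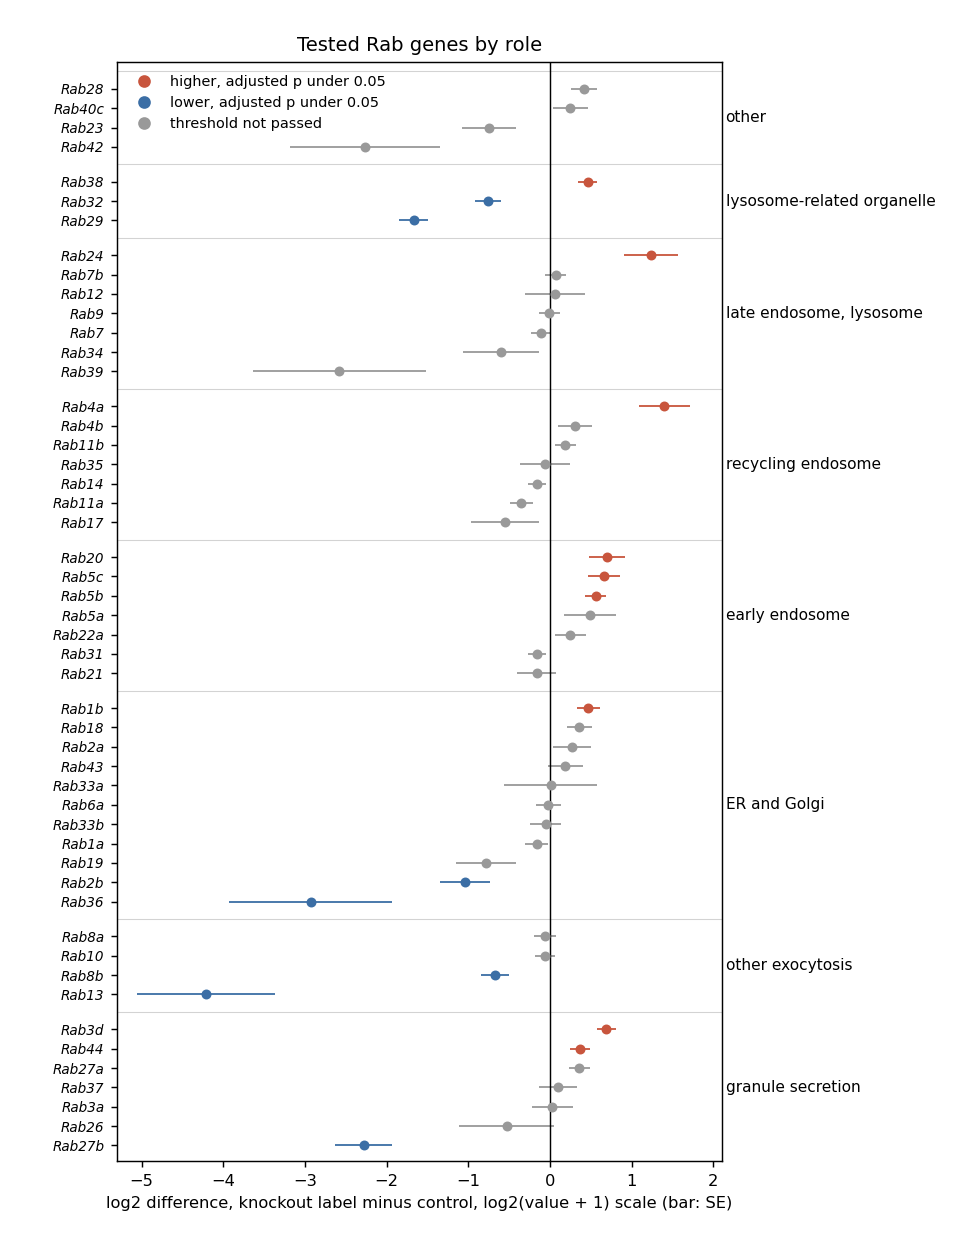
Log2 difference, knockout label minus control, of the 50 tested Rab genes (x axis, log2(value + 1) scale), grouped by role, with bars for the SE of the limma fit on 3 libraries per group. Red points rose (9), blue points fell (7) and grey points did not pass the threshold (34), and Rab13 lies farthest from 0 at -4.21.

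Rab29, Rab32 and Rab38, placed here with lysosome-related organelles, were all called, and not in 1 direction. Rab29, which acts at the trans-Golgi network and lysosomes and is known as a partner of the kinase LRRK2, stood at 1575, 1389 and 1240 normalized counts in control libraries and 452.3, 540.4 and 346 in KO libraries. Every KO library was below every control library, and the level was 3.17-fold lower (log2 difference -1.67, SE 0.18, limma adjusted p = 7.91e-05). Rab32, which directs cargo to melanosomes and to the vacuoles that hold some bacteria, stood at 6858, 6815 and 7115 in control and at 5057, 4422 and 3041 in KO libraries. The groups did not overlap, and Rab32 was 1.70-fold lower (log2 difference -0.76, SE 0.16, adjusted p = 0.00556). Rab38, its close relative, mutated in the chocolate coat-colour mouse, was higher instead: 2254, 2094 and 2294 against 3099, 2703 and 3385. Here too the groups were apart, by 0.46 on the log2 scale (SE 0.12, adjusted p = 0.0163), but Rab38 missed the threshold when control replicate 2 (adjusted p = 0.0811) or 3 (0.0527) was left out. The calls of Rab29 and Rab32 held in all 15 alternative settings.

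Per kilobase of its longest transcript, Rab32 had the highest value among Rabs in control GMPs, at 3224 normalized counts, beside 3037 for the late endosomal Rab7. The order of these 2 genes is not settled, because 14.5% of the 50-base words of Rab7, and 0 of Rab32, also occur in another gene, and reads aligning to several places were not counted. In the KO libraries Rab32 and Rab38 were level, at 1942 each, below Rab1b (3073), Rab7 (2824), Rab9 (2369) and Rab11a (1962). The ratio of Rab32 to Rab38 within a library, which no scaling of the library can change, was 2.23, 2.39 and 2.28 in control and 1.2, 1.2 and 0.659 in KO libraries. The ratio of Rab38 to Rab29 went the other way, from 1.11, 1.17 and 1.44 to 5.33, 3.89 and 7.60. Both ratios separated the groups completely, as did those of 7 of the 15 pairs of related Rabs computed. With 3 libraries against 3, a two-sided exact permutation test cannot go below p = 0.1, the value reached by each of these 7 (Benjamini-Hochberg adjusted p = 0.214 over the 15). The pairs were chosen with the values known.

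Together the 3 genes made up 18.2 to 19.9% of the summed per-kilobase Rab level in control libraries and 13.2 to 14.3% in KO libraries. The ER and Golgi Rabs made up 23.6 to 24.8% in control and 27.1 to 28.7% in KO libraries. The share of granule-secretion Rabs ran from 6.80 to 7.52% and from 7.93 to 10.7%, and that of early endosomal Rabs from 6.16 to 6.71% and from 7.09 to 8.06%. Recycling Rabs had 14.6 to 15.5% in control and 13.2 to 14.0% in KO libraries, other exocytosis Rabs 6.47 to 6.75% and 5.70 to 6.34%, and the remaining Rabs 1.68 to 1.80% and 2.07 to 2.33%. The ranges of the share overlapped for 1 role, the late endosomal Rabs (19.5 to 20.4% and 18.8 to 20.6%). Shares add up to a whole, so a fall in 1 role raises others. The summed per-kilobase level of ER and Golgi Rabs overlapped, at 6987 to 7698 in control and 7491 to 9164 in KO libraries. So did those of recycling (4329 to 4802 and 3802 to 4574) and other exocytosis Rabs (1998 to 2012 and 1578 to 2025). Late endosomal sums overlapped as well. Sums were apart for the Rabs of lysosome-related organelles, granule secretion and early endosomes and for the remaining Rabs.

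**Figure D2:**
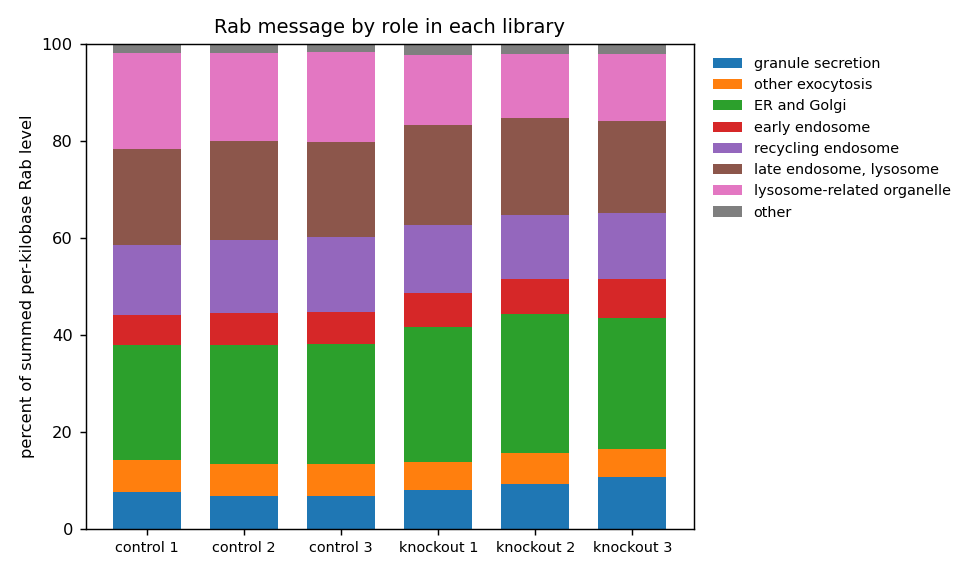
Percent of the summed per-kilobase Rab level (y axis) taken by each role in each of the 6 libraries (x axis), each bar stacking to 100. The segment of the 3 lysosome-related organelle Rabs is 18.2 to 19.9% in control libraries and 13.2 to 14.3% in KO libraries.

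Most of the tested monocyte and dendritic cell markers were lower in the KO libraries, as were Rab29 and Rab32. Such falls were not particular to these markers. Over all genes tested 15.0% fell and 11.8% rose. Of 10 B-cell markers 9 fell and 0 rose, of 7 T and NK markers 6 fell and 1 rose, and of 7 eosinophil markers 4 fell and 1 rose. Of 11 tested monocyte and macrophage markers 10 fell and 0 rose (median log2 difference -2.43). Ly6c2, which holds most of the counts of that list, did not pass (adjusted p = 0.418). It stood at 57137, 66624 and 60557 in control and at 87914, 98227 and 46716 in KO libraries. Without KO replicate 3 it was called higher (limma adjusted p = 0.00248). The summed level of the list ran from 82948 to 93746 normalized counts in control and from 51741 to 105366 in KO libraries, and without Ly6c2 from 25811 to 27122 and from 5026 to 7358. Of 14 tested dendritic cell markers 12 fell and 0 rose (median -2.71), with a summed level of 19352 to 35017 against 3249 to 8394. No marker of the monocyte or dendritic cell list was at 0 in a whole group. Fcgr1, Ciita, Spib and the uncalled Itgax reached the mean of 10 only through the control libraries. Their part in the Rab differences was not tested.

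The upstream sequences of the called granule and lysosome-related Rabs are shown because these genes moved in different directions, and they let their start regions be compared. Of 6 such genes, 3 had an entry in the RefSeq table (build GRCm38.p6), which covers 48 of the 59 Rabs. That build differs from those named for the reads. The 250 bases before the start are printed on the gene's strand, with matches to the PU.1 core in capitals (PU.1 is the myeloid ETS factor encoded by Spi1).
Rab29, chr1:131867027-131867276, plus strand: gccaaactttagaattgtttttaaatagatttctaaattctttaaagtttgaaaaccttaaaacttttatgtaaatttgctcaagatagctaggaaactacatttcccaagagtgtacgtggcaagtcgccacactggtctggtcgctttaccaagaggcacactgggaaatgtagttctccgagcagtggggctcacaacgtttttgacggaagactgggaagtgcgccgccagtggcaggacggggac
Rab32, chr10:10558208-10558457, minus strand: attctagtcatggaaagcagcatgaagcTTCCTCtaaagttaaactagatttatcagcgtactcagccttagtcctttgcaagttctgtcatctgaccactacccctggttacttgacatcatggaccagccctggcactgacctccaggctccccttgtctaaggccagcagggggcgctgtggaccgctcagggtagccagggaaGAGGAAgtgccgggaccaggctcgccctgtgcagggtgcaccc
Rab3d, chr9:21918184-21918433, minus strand: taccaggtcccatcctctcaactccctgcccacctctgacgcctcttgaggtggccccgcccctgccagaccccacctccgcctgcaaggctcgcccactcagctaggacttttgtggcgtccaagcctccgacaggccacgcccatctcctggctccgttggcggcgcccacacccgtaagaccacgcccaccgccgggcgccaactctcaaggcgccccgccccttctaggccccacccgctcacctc
Searched on both strands, the PU.1 core GAGGAA was found at 2 places before Rab32 and at none before Rab29 and Rab3d. It was present in 23.3% of all 32851 windows of this length and in 8 of the 60 windows of Rab genes. The E-box CACGTG, read by MITF and TFEB, was in none of the 3 windows, in 5 of the 60 Rab windows and in 6.02% of all windows. The interferon response word (GAAA, any 2 bases, GAAA) was likewise absent from all 3, and was found in 1 of the 60 Rab windows and in 2.98% of all. Rab3d held 18 CpG pairs in its window, Rab29 9 and Rab32 5, beside a median of 6 over all windows. A match is a description of the letters and not a binding site.

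Among the 9 Rabs of granule secretion, 8 had a read and 7 were tested, of which 2 rose and 1 fell. Rab3d, the Rab3 of secretory granules outside neurons, stood at 2161, 2132 and 1928 normalized counts in control and at 3072, 3705 and 3309 in KO libraries. Every KO library was above every control library, 1.62-fold (log2 difference 0.69, SE 0.12, limma adjusted p = 0.00158), and the call held in all 15 alternatives. Rab27b, which docks granules in platelets and mast cells, went the other way, from 239.9, 289.5 and 356.5 to 84.27, 33.32 and 74.22. It was 4.84-fold lower with no overlap (log2 difference -2.28, SE 0.35, adjusted p = 0.000777), also in all 15 alternatives. Its relative Rab27a, which tethers the granules of neutrophils and killer lymphocytes and is lost in Griscelli syndrome, was at 1885, 1752 and 1768 against 2050, 2291 and 2628. These groups did not overlap either, but Rab27a did not pass (log2 difference 0.36, 95% interval 0.08 to 0.64, adjusted p = 0.0554). It passed without KO replicate 1 (0.0197), in DESeq2 (0.0324) and after GC and length correction (0.0028).

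Rab44, a large Rab of bone marrow and mast cells, rose from 2940, 2819 and 3005 to 3439, 4377 and 3537 normalized counts (log2 difference 0.37, SE 0.12, limma adjusted p = 0.0467). That call was the least stable of the class. It did not survive leaving out control replicate 1 (adjusted p = 0.117), 2 (0.157) or 3 (0.116) or KO replicate 2 (0.124), nor did it hold with replicate numbers as a block (0.0813), with every gene of at least 1 read tested (0.0623) and on GC- and length-corrected values (0.215). Rab37, of mast cell granules, stood at 576.6, 468.2 and 524.1 in control and at 525.9, 410.2 and 811.9 in KO libraries, with full overlap (adjusted p = 0.775, 95% interval of the log2 difference -0.40 to 0.60). Rab3a, the synaptic vesicle Rab, was at 109.3, 114.7 and 112.3 against 134.4, 106.2 and 105.1 (0.946, interval -0.53 to 0.59). Rab26, of exocrine granules, was low at 50.64, 29.62 and 19.61 against 29.87, 9.37 and 33.12 (0.542). Rab3b had 9 reads in control replicate 1 and 0 in the other libraries, and Rab3c had 0 reads in all 6.

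**Figure D3:**
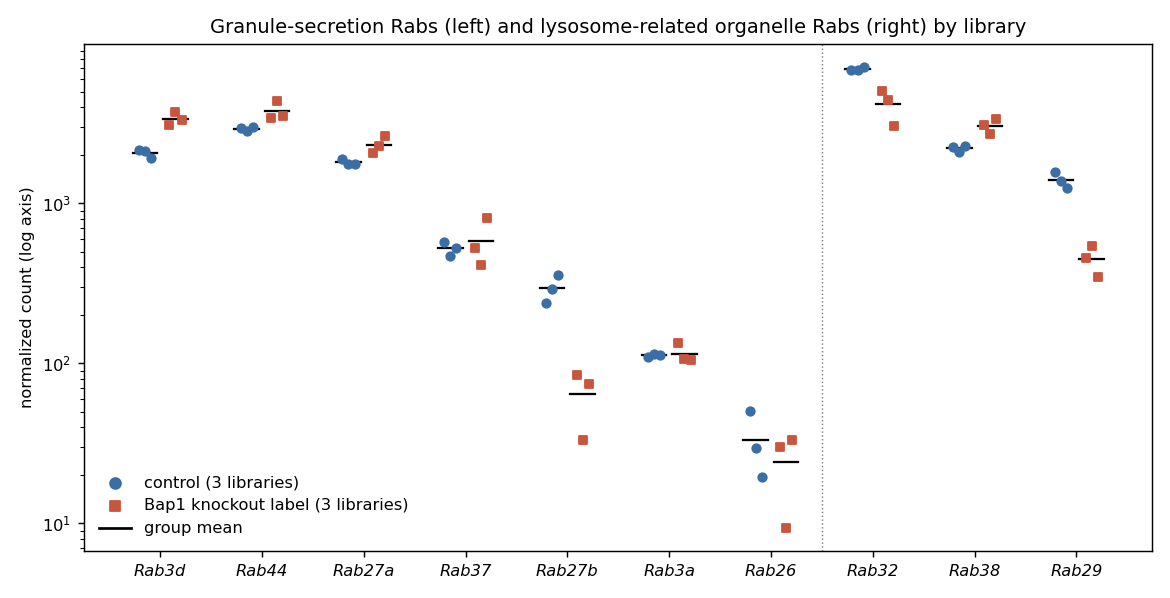
Normalized counts (y axis, log scale) of the 7 tested granule-secretion Rabs and the 3 Rabs of lysosome-related organelles (x axis) in 3 control (circles) and 3 KO libraries (squares), with group means as lines. Groups are apart for Rab3d, Rab44, Rab27a, Rab27b, Rab32, Rab38 and Rab29, and overlap for Rab37, Rab3a and Rab26.

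Per kilobase, Rab27a outweighed Rab27b in every library, by 17.1, 13.2 and 10.8 times in control and by 52.9, 150 and 77 times in KO libraries. Markers of mast cells and basophils and of megakaryocytes, cells best known for Rab27b, moved in both directions. Of 9 tested mast cell and basophil markers 5 fell and 1 rose (median log2 difference -1.34), with a summed level of 50770 to 61106 normalized counts in control and 20069 to 29987 in KO libraries. That gap rests on Prss34, a basophil protease gene (27876 ± 3337 in control and 891 ± 294.5 in KO libraries, SD, n = 3 each): without it the sums overlapped, at 25372 to 30285 and 19499 to 28837. Mcpt8, another basophil protease gene, was the member that rose (log2 difference 0.62, limma adjusted p = 0.0168). That call was lost without control replicate 1 or 2 (limma adjusted p up to 0.0764). Besides Prss34, Ms4a2 (log2 difference -2.29, limma adjusted p = 2.02e-05) and Fcer1a (-1.71, 0.000122) fell in all 15 alternatives. Tpsab1 and Mcpt4 of that list were at 0 in all 6 libraries and Tpsb2 in the KO ones. Of 13 tested megakaryocyte and platelet markers 5 fell and 2 rose (median -0.88), the latter being the platelet receptor genes Gp5 and Gp1ba. Clec1b, which fell, was tested only because of its control level (mean 33.82 in control and 4.68 in KO libraries). Its call is therefore a description. The uncalled Gp1bb, which enters the median, was tested only because of its KO level (5.04 and 16). The summed level of this list overlapped between groups (2571 to 4216 and 1876 to 4158) but not without Itga2b (1995 to 3390 and 1098 to 1632). Most of the control counts left without Itga2b are of Pf4. Pf4 was at 1814, 1093 and 2152 in control and 190.9, 214.5 and 217 in KO libraries, so that gap rests largely on 1 gene. Gp6 was at 0 in the KO libraries. The part of these markers in the fall of Rab27b was not tested. Of the 12 markers listed for secondary granules of neutrophils, 4 rose (Lcn2, Cebpe, Ltb4r1 and Pglyrp1) and 0 fell. Over all genes tested 11.8% rose and 15.0% fell. The sums of this list also overlapped (150750 to 202855 and 135419 to 350647). Ltf was lower without passing (log2 difference -1.49, limma adjusted p = 0.0536) and passed in 5 of 15 alternatives. Without KO replicate 3, Camp, Ngp, S100a8, S100a9 and Cd177 were called higher (limma adjusted p up to 0.0209). The part of these markers in the rises of Rab3d and Rab44 was likewise not tested.

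**Figure D4:**
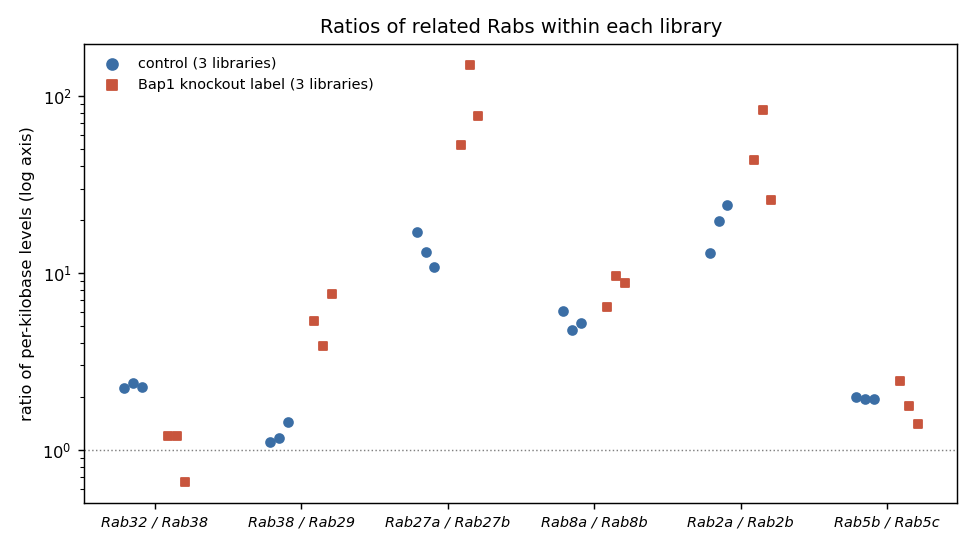
Ratio of per-kilobase levels (y axis, log scale) of 6 pairs of related Rabs (x axis) in each control (circles) and KO library (squares). The groups are apart for the first 5 pairs, with Rab27a over Rab27b at 10.8 to 17.1 in control and 52.9 to 150 in KO libraries, and overlap for Rab5b over Rab5c.

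Of the 4 Rabs of other exocytosis, Rab13 and Rab8b fell, and 0 rose (0 also at an unadjusted limma p under 0.05 and in edgeR and DESeq2). Rab13, known for traffic to cell junctions, was a low-level gene in control GMPs, at 34.65, 66.88 and 49.92 normalized counts. It was near the limit of 3 reads in KO libraries, at 8.53, 1.04 and 0, with 8, 1 and 0 reads (log2 difference -4.21, SE 0.84). Since Rab13 was tested only because of its control level, its call is given as a description and not as support. Rab8b, which carries vesicles from the Golgi to the surface, fell from 877.8, 1087 and 986.7 to 752, 626.8 and 499 (-0.67, SE 0.17, adjusted p = 0.0153), with no overlap. Leaving out control replicate 2 (0.0781) or 3 (0.0592) ended that call, as did the GC and length correction (0.124). Its more abundant relative Rab8a was at 5160, 4989 and 4969 against 4672, 5753 and 4187, with overlap and an interval for the log2 difference of -0.34 to 0.22. Rab8a over Rab8b per kilobase was 6.11, 4.77 and 5.24 in control and 6.46, 9.55 and 8.73 in KO libraries.

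Early endosomal Rabs had 3 members higher and 0 lower of 7 tested (0 lower also at an unadjusted limma p under 0.05 and in edgeR and DESeq2). Of the Rab5 trio, which drives fusion of early endosomes, Rab5b rose from 941.8, 1060 and 902 to 1460, 1516 and 1314 normalized counts (log2 difference 0.56, SE 0.13, limma adjusted p = 0.00888). Rab5c rose from 293.2, 337.3 and 287.9 to 367, 533.1 and 581.2 (0.66, SE 0.20, adjusted p = 0.0322). Both were apart between groups, while Rab5a overlapped, at 411.4, 838.9 and 1038 against 1475, 935 and 718.3 (adjusted p = 0.291, interval of the log2 difference -0.22 to 1.20). Rab20, a Rab of endosomes and phagosomes known to respond to hypoxia, rose from 150.2, 188.2 and 139.9 to 222.9, 269.7 and 286.6 (0.70, SE 0.22, adjusted p = 0.0357). Rab31, the member with the most counts, was below every control library in all 3 KO libraries, at 3572, 3617 and 3662 against 3197, 3083 and 3426, yet did not pass (adjusted p = 0.289).

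Of these early endosomal calls, Rab5b was lost without control replicate 3 (limma adjusted p = 0.0517). Rab5c was lost without control replicate 1 (0.0887), 2 (0.063) or 3 (0.11) or KO replicate 2 (0.0994) or 3 (0.0968). Rab20 was lost without control replicate 1 (0.102) or 3 (0.132), without KO replicate 2 (0.0879) or 3 (0.0888), and with the replicate block (0.053). Of the 50-base words of the Rab5b transcript, 13% also occur in the transcript of a gene elsewhere, Gm13991.

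Rab4a, of fast recycling to the surface, was the recycling Rab that changed: 210.6, 126.1 and 131.9 normalized counts in control against 425.6, 254 and 604.1 in KO libraries. It was 2.64-fold higher without overlap (log2 difference 1.40, SE 0.31, limma adjusted p = 0.00703), in all 15 alternatives. Rab4b overlapped between groups, at 183, 223.6 and 190.7 against 270.9, 265.5 and 206.7 (adjusted p = 0.311, interval -0.16 to 0.77). Rab14, the recycling Rab with the most counts, was at 6791, 6986 and 7637 against 6920, 6171 and 6043 (0.301). Rab11a, the main Rab of slow recycling, averaged 5777 ± 475 and 4583 ± 852.1 (SD, n = 3 each; limma adjusted p = 0.0976) and passed only without KO replicate 1 (0.0343). None of the 7 tested recycling Rabs fell in limma at the adjusted threshold, 1 did at an unadjusted p under 0.05, and 0 did in edgeR or DESeq2. Rab15 and Rab25 had 0 reads in control, and Rab25 had 16, 1 and 0 reads in the KO libraries.

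Rab24, which marks autophagosomes, was the late endosomal and lysosomal Rab that rose: 191, 475.8 and 506.3 normalized counts in control against 900.3, 1074 and 625.8 (log2 difference 1.24, SE 0.33, limma adjusted p = 0.0174). The groups were apart, with control replicate 1 well below the other 2, and the call was lost without KO replicate 1 (0.0519) or 2 (0.0835). Prelid1 overlaps Rab24 in the annotation and is more abundant, at 5896 ± 143.6 in control and 6906 ± 959.5 in KO libraries (SD, n = 3 each; adjusted p = 0.203), so reads of the 2 genes may be mixed. Rab7, which hands late endosomes over to lysosomes, stood at 6477, 6988 and 6205 against 6727, 6088 and 5475 (adjusted p = 0.525, interval of the log2 difference -0.36 to 0.15). Rab9, of transport from late endosomes to the Golgi, averaged 3426 ± 114.7 and 3428 ± 564.4 (SD, n = 3 each; interval -0.31 to 0.28). The words that Rab7 shares are those of the pseudogene Rab7-ps1, and 7.9% of the words of Rab9 occur in Rab9b-ps1. In the class of 7 tested genes 0 fell in limma, edgeR and DESeq2, and 1 did at an unadjusted limma p under 0.05.

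The 11 tested ER and Golgi Rabs had 1 higher and 2 lower. Rab1b, of ER to Golgi transport, rose from 4502, 4175 and 3956 to 4812, 6788 and 6038 normalized counts (log2 difference 0.47, SE 0.14, limma adjusted p = 0.025), while Rab1a overlapped at 5608, 5825 and 5770 against 6018, 5416 and 4152 (0.425). Rab2b fell from 319.9, 316.3 and 277.2 to 200.5, 87.46 and 180.4 (-1.04, SE 0.30, adjusted p = 0.0229), and Rab2a, at 3385 ± 817.2 and 4120 ± 1237, did not pass (SD, n = 3 each; 0.421). Rab36, a Golgi Rab, was read unevenly in control, at 63.08, 5.73 and 21.39, and was at 4.27, 3.12 and 0 in KO libraries, with 4, 3 and 0 reads (-2.93, SE 1.00, adjusted p = 0.049), and it too was tested only because of its control level. Rab2b overlaps Tox4, which is more abundant (1976 ± 134.8 and 1685 ± 132.9, SD, n = 3 each; adjusted p = 0.189), so their reads may be mixed as well. None of the 3 calls held throughout. Rab1b was lost without control replicate 2 (0.0891) or 3 (0.111), without KO replicate 2 (0.0811) or 3 (0.05) and after GC and length correction (0.0512). Rab2b was lost without control replicate 1 (0.0668), 2 (0.0821) or 3 (0.0585) and after that correction (0.0619). Rab36 was lost without control replicate 1 (0.223) or 3 (0.126), without KO replicate 2 (0.0732) or 3 (0.118), at a pseudocount of 0.5 (0.056) and with every gene of at least 1 read tested (0.0545).

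Of the 5 remaining Rabs 4 were tested and none passed limma's adjusted threshold, while 1 higher and 2 lower passed at an unadjusted p under 0.05. edgeR called none of them and DESeq2 called 1 higher. Rab28, a Rab of cilia, was the most abundant of them, at 1174, 1171 and 1153 normalized counts against 1941, 1532 and 1264, and its groups did not overlap (log2 difference 0.42, SE 0.16, adjusted p = 0.0714). It passed without KO replicate 3 (0.0156), after GC and length correction (0.000244) and in DESeq2 (0.0358). Rab23, which holds back Hedgehog signalling in cilia, was at 98.62, 90.77 and 89.13 against 38.4, 70.8 and 60.52, apart but not past the threshold (adjusted p = 0.116). Low-level Rab42 was also apart without passing, at 20.44, 23.89 and 24.07 against 0, 12.49 and 7.99 (adjusted p = 0.0921).

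Adjusted limma p-values of the 34 Rabs that passed in neither direction ran from 0.0554 to 0.992. Among them Rab18, of the ER and lipid droplets, was at 4653, 4359 and 4945 normalized counts against 7543, 5734 and 4868, an overlap of 1 library (log2 difference 0.36, SE 0.15, adjusted p = 0.103), and it passed without KO replicate 3 (0.0197) and after GC and length correction. Rab10, of exocytosis and glucose transporter traffic, was nearly level at 2300, 2195 and 2374 against 2459, 2204 and 1939 (interval of the log2 difference -0.34 to 0.21), as was Rab6a, of transport within the Golgi, at 1462, 1931 and 2097 against 1901, 1752 and 1696 (interval -0.35 to 0.30). A further 7 Rabs had reads but were too low to test, each with 18 reads or fewer in every library. Rab30, a Golgi Rab, had 9, 2 and 5 reads in control and 0 in all KO libraries, which allows up to 3.43 normalized counts at the limit of 3 reads. Rab40b had 5, 5 and 12 reads against 0, 15 and 18, Rab6b 9, 6 and 7 against 7, 0 and 0, and Rab39b 6 or fewer in each library. Rab9b, like Rab3c, had 0 reads in all 6 libraries. Over all 50 tested Rabs, 11 stood higher and 10 lower in every KO library than in any control library, beside 20.4% and 22.5% of all genes tested. In 38 of the 50 the KO libraries spread more, relative to their mean, than the controls, beside 67.8% of all genes tested, and KO replicate 3 was the lowest of its group in 26.

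The proteins that load, switch and read Rabs were taken from 6 lists with 136 tested genes, of which 19 rose and 19 fell (median log2 difference 0.06). That is 27.9%, beside 26.8% of all genes tested, so these genes were called about as often as others, and the counts of the lists below are to be read against 11.8% higher and 15.0% lower. Of 8 genes of prenylation and recycling of Rabs, 1 rose and 1 fell. Chm, the escort protein that presents Rabs for lipid attachment, fell from 339.4, 434.7 and 339.6 to 272, 159.3 and 137 normalized counts (log2 difference -1.02, SE 0.26, limma adjusted p = 0.0144; lost without control replicate 2 at 0.0746 and KO replicate 2 at 0.054). Rabif rose by 0.47 on that scale (adjusted p = 0.0137; 0.0582 without control replicate 1 and 0.0566 without 2). Of 33 exchange factors 1 rose and 4 fell. Hps1, a subunit of BLOC-3, which is the exchange factor of Rab32 and Rab38, rose from 1313, 1171 and 1188 to 1458, 2089 and 1803 (0.53, SE 0.15, adjusted p = 0.0215), but not with control replicate 2 (0.0866) or 3 (0.0823) or KO replicate 2 (0.0735) left out. Its partner subunit Hps4, picked with its values in view, was at 335, 316.3 and 327.1 against 349.9, 392.5 and 453.3 (0.264). Madd, an exchange factor of Rab3 and Rab27, fell by 0.85 (adjusted p = 0.00628). Rin2, which acts on Rab5, and Dennd5b were tested only because of their control levels, so their calls are a description: Rin2 averaged 65.3 ± 23.71 and 5.68 ± 4.10, and Dennd5b 31.13 ± 16.49 and 2.64 ± 3.69, in control and KO libraries (SD, n = 3 each). Without control replicate 1 or 3 Dennd5b was not called.

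Among 16 tested genes of Rab3 and Rab27 effectors and granule fusion 5 rose and 5 fell, and the membrane fusion proteins split. Vamp8, the vesicle SNARE of granule release in many blood cells, rose from 7215, 6199 and 6053 to 9666, 10972 and 10568 normalized counts (log2 difference 0.68, SE 0.11, limma adjusted p = 0.00131). Snap23, its partner on the target membrane, fell from 3560, 3639 and 3108 to 2153, 1550 and 1527 (-0.99, SE 0.15, adjusted p = 0.000681). Neither gene had overlapping groups. Stx11, a syntaxin of cytotoxic granule release, fell by 1.09 (adjusted p = 0.0113; 0.0621 without control replicate 2) and the endosomal syntaxin Stx7 by 0.83 (0.0037). Sytl1, a synaptotagmin-like effector of Rab27, rose from 156.4, 102.2 and 115.9 to 247.5, 614.3 and 488.7 (1.77, SE 0.32, adjusted p = 0.00204). Rph3al (noc2), an effector of Rab3 and Rab27, rose by 2.02 from a low level of 16.82 ± 7.68 (SD, n = 3; adjusted p = 0.0115, and 0.0537 without KO replicate 2).

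Of 29 tested GTPase-activating proteins 6 rose and 3 fell. Tbc1d10c, known to act on Rab35 and expressed in blood cells, rose from 1143, 1025 and 1024 to 1553, 2393 and 2179 normalized counts (log2 difference 0.92, SE 0.16, limma adjusted p = 0.00191), Tbc1d22b by 1.24 (0.00442) and Tbc1d22a by 0.79 (0.00491). Tbc1d7, also a subunit of the TSC complex, fell from 930.3, 840.8 and 952.9 to 243.2, 296.7 and 301.5 (-1.70, SE 0.16, adjusted p = 3.63e-05). Tbc1d1, of glucose transporter traffic, fell by 1.26 (0.00114) and Rabgap1l by 0.72 (0.00574). Of 22 tested endosomal effectors 2 rose and 5 fell. The retromer-associated sorting nexin Snx1 fell from 5694, 5619 and 5634 to 2658, 3113 and 2907 (-0.97, SE 0.11, adjusted p = 0.000102), Rabep1 (rabaptin-5, an effector of Rab5 and Rab4) by 0.81 (0.00638) and Rufy2 by 0.75 (0.00239). Mical1 rose by 0.92 (0.00378), and Rab11fip1, an effector of Rab11, by 0.78 (0.044), the latter lost without control replicate 2 (0.125) or 3 (0.161), without KO replicate 1 (0.0763), 2 (0.0705) or 3 (0.0966), with every gene of at least 1 read tested (0.0669), with the block (0.0636) and in edgeR (0.0539).

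Of 28 tested genes of late endosomes, the HOPS tether and biogenesis of lysosome-related organelles 4 rose and 1 fell. Osbpl1a (ORP1L), a cholesterol sensor that binds Rab7, rose from 359.8, 347.8 and 345.8 to 901.4, 772.5 and 1162 normalized counts (log2 difference 1.41, SE 0.17, limma adjusted p = 0.000204). Dtnbp1 (dysbindin), a subunit of BLOC-1, which builds lysosome-related organelles, rose from 2067, 1883 and 2094 to 3010, 3778 and 3244 (0.73, SE 0.12, adjusted p = 0.00148). Groups were apart for both. Snapin, of the same complex, rose by 0.42 (0.0337), a call lost without control replicate 1 (0.0659), 2 (0.119) or 3 (0.121) or KO replicate 1 (0.0639). Hps5, of BLOC-2, fell by 1.04 (0.0448), a call lost in 8 of 15 alternatives, among them without control replicate 2 (0.112) or 3 (0.192) and KO replicate 2 (0.123) or 3 (0.125). Lrrk2, the kinase linked to Rab29 and also picked with its values in view, was at 134.2, 141.4 and 137.3 against 206.9, 96.83 and 97.06, with overlap (0.78).

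**Figure D5:**
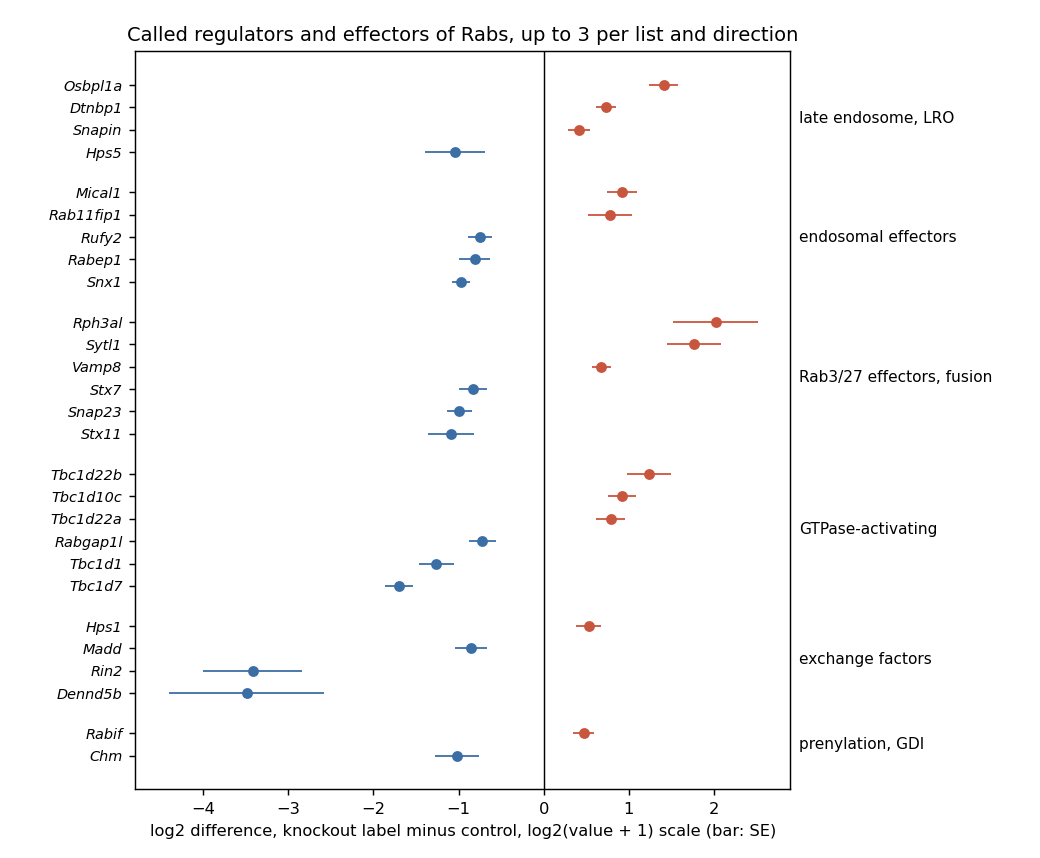
Log2 difference, knockout label minus control (x axis, log2(value + 1) scale, bars for SE, 3 libraries per group), of the called regulators and effectors of Rabs with the smallest p, up to 3 per list and direction. Red points rose and blue points fell. In the granule fusion list Vamp8 lies at 0.68 and Snap23 at -0.99.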

How the data were processed

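RNA of 6 GMP libraries (3 per group) was amplified by the SMARTer low-input method and sequenced on an Ion Torrent instrument, per the labels' protocols. No molecular identifiers are named, so read limits cover counting error only. Tools named in the submitters' processing notes are DESeq2, HTSeq, STAR, Picard and BWA 0.7.5a, and the builds are NCBIM37 and mm9, with no role for any. Whether counting used strand is not stated. The deposited signal of a gene is a count that the authors' table gives divided by 1 size factor per library: 100% of values were whole multiples, within 0.01 of a read, of a step of 0.8885 to 1.1419. The 5 rows that name no gene were left out, namely no feature (38.4 to 40.9% of listed reads), not unique (26.8 to 28.8%), not aligned (6.3 to 11.6%) and ambiguous (0.12 to 0.13%), besides an empty low-quality row.

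Symbols, lengths and GC content came from GENCODE M21 (32897 of 37620 IDs, 93.7% of those with a read). It uses another build than the reads, so coordinates are given only with the printed upstream sequences. The main test was limma 3.58.1 (R 4.3.3, trend on) of log2(value + 1), two-sided, with group as its only term, for genes averaging at least 10, adjusted by Benjamini-Hochberg over all of them, and was tested on simulated data. The log2 scale understates changes of low genes. Levels of different genes are compared per kilobase of the longest transcript. edgeR 4.0.16 on the recovered reads called 1686 genes higher and 2067 lower (26.1% of 14391), and DESeq2 1.42.0 was also run.

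Members, roles, lists and pairs were chosen with earlier results of these data known. The rule for named genes took each called Rab, each tested Rab of granules and lysosome-related organelles, the Rab with the most counts of each other role, and up to 3 called genes per list and direction. Other uncalled Rabs, among them Rab10, Rab11a, Rab18 and Rab23, were named outside this rule with their values known. Further marker lists were counted: of 12 tested erythroid markers 7 rose and 0 fell, of 7 eosinophil markers 1 rose and 4 fell, of 10 B-cell markers 0 rose and 9 fell, and of 7 T and NK markers 1 rose and 6 fell, some of them genes that reached the mean of 10 in only 1 group.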

Additional observations from a re-analysis of the deposited data

How the results depend on the processing

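The counts of called Rabs moved with the libraries left out. Leaving out each library in turn gave 3 to 9 Rabs higher and 4 to 8 lower, in place of 9 and 7; the lowest counts, 3 and 4, came without control replicate 3, and 5 and 4 Rabs were higher without control replicate 2 and knockout replicate 2. Regulators and effectors ranged from 9 to 21 higher (9 without control replicate 2, 11 without control replicate 3 or knockout replicate 2) and 13 to 19 lower, in place of 19 and 19. All these fits hold fewer samples. Other pseudocounts, filters, TMM scaling, edgeR and DESeq2 gave 8 to 11 Rabs higher and 5 to 7 lower. Correction for GC content and length gave 28 regulators and effectors higher and 20 lower, beside 2569 genes higher and 1940 lower overall; the cause was not tested.

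No named gene that was called changed direction in the alternatives run. Uncalled Rabs that changed sign after GC and length correction were Rab14 (0.15), Rab1a (0.18), Rab3a (-0.02), Rab7 (0.06) and Rab8a (0.09). With libraries left out in turn, Rab26 ran from -0.84 to 0.02 (without knockout replicate 2), Rab37 from -0.17 (without knockout replicate 3) to 0.33, Rab3a from -0.08 (without knockout replicate 1) to 0.09 and Rab8a from -0.19 to 0.04 (without knockout replicate 3).

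Replicate numbers share only a number: the deviations of same-numbered libraries correlated at -0.104, 0.0417 and -0.058. With the number as a replicate block, 7 Rabs rose and 7 fell, and 19 regulators and effectors rose and 16 fell. Genes under about 10 reads per library, such as Rab13 and Rab36 in the knockout-labelled libraries, are limited by depth.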
